A study of Mus musculus with 10 samples.

Results

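The genes of glycolysis, of pyruvate entry into the mitochondrion and of lactate transport were examined in retinal pigment epithelium (RPE), a cell layer that lies between photoreceptors and choroid. The set held 34 genes of the 47729 in the table, taken by symbol from a list of the enzymes of the pathway, the kinases that regulate it and the transporters of its substrate and product. RNA was sequenced from 5 wild-type CD1 mice at postnatal day 40, with 2 libraries per mouse. CD1 is an albino strain, so its RPE holds no melanin. In each mouse 1 eye had received AAV with GFP under the Best1 promoter (GFP control eye), and the contralateral eye the same vector together with AAV carrying human Nrf2 under Best1 (Nrf2 eye). AAV, adeno-associated virus, served as the gene carrier, Best1 drives expression in RPE cells, and Nrf2 activates antioxidant genes. The Nrf2 eyes thus carried an additional vector, and the number of vectors and the presence of Nrf2 cannot be told apart. After the retina had been taken out, connective tissue was cleaned off the eyecup, the eyecup was put in an RNA preserving solution, and RNA was purified from the supernatant. PolyA RNA was amplified before sequencing, and RNA of any other cells that reached the supernatant was counted too.

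Photoreceptors take up glucose that crosses the RPE and turn much of it into lactate by aerobic glycolysis, and the RPE takes up that lactate and passes it to the choroid or oxidizes it. Glucose crosses RPE membranes through GLUT1. Lactate enters at the apical side through MCT1 and leaves at the basal side through MCT3, and both transporters need basigin to reach the membrane. Most steps of glycolysis have several isoforms encoded by separate genes, some of them typical of muscle or of neurons, so the isoforms present in a sample depend on the cells in it.

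Library totals ran from 12298404 to 27310638 counts, and levels are given as CPM, which are counts scaled to the library total. Nfe2l2, the mouse gene of Nrf2, measured 88.7 ± 12.7 CPM (SD, n = 5) without and 353 ± 53.6 CPM (SD, n = 5) with the Nrf2 vector, which is 1.97 on the log2 scale (SE 0.11, edgeR adjusted p = 0.000299). Reads of the human sequence can align to it. Of 16362 genes tested with edgeR, 1036 (6.33%) had an adjusted p under 0.05, 589 of them (3.6%) higher and 447 (2.73%) lower in Nrf2 eyes. The lower count was 173 to 292 without 1 mouse (fewest without mouse 2), 232 with no replicate block and 174 with the summed rod markers as a covariate. The CPM of the groups did not overlap in 633 genes that were higher (3.87%) and in 395 that were lower (2.41%). Of 13 RPE markers, all of which were tested, 6 were lower, and their summed level was 22820 to 45730 CPM in control and 11590 to 30320 CPM in Nrf2 eyes. Best1 itself, a defining RPE gene, was near 0, with a mean of 0.766 CPM in control and 1.14 CPM in Nrf2 eyes. Microglia and macrophage markers summed to 307 to 393 CPM in control and 562 to 2332 CPM in Nrf2 eyes, with 11 of 13 higher. In bulk RNA, fewer cells of a type and less RNA per cell cannot be told apart.

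All 34 genes had enough counts to be tested. With the mouse as a block, 0 were higher and 2 were lower in Nrf2 eyes at an adjusted p under 0.05, which is 5.88% of the set beside 6.33% of all tested genes called in either direction and 2.73% called lower. The 2 were Slc16a1 and Slc16a8, the genes of the lactate transporters MCT1 and MCT3. At an unadjusted p under 0.05 there were 11, of which 7 were higher and 4 lower, beside 19.1% of all tested genes (9.58% higher and 9.53% lower). DESeq2 called 2 of the 34 higher and 2 lower, beside 9.25% of the genes it tested called in either direction. The log2 fold change was positive in 22 of 34, with a median of 0.11 against -0.01 over all tested genes. The groups did not overlap in 1 gene, Slc16a1, which is lower, beside 2.41% of all tested genes.

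The upstream sequences of the 2 genes that were lower are shown because they share a direction, and because MCT1 and MCT3 serve opposite faces of the same cell. Each line holds 250 bases upstream of the RefSeq transcript start on build GRCm38.p6, written in the direction of transcription, and capitals mark motif matches. They lie at chr3:104638414-104638663 on the plus strand (Slc16a1) and chr15:79254749-79254998 on the minus strand (Slc16a8).
Slc16a1: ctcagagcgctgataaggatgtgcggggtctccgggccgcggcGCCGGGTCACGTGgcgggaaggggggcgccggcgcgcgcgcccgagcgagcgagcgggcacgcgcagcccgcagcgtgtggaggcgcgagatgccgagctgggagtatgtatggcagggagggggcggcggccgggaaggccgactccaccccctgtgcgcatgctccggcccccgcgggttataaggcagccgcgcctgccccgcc
Slc16a8: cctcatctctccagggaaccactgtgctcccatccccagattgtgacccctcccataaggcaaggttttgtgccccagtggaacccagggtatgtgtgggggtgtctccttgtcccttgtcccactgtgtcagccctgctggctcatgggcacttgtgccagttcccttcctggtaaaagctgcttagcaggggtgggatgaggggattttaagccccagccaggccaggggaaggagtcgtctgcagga

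On both strands, 4 short motifs were searched, all picked after the expression values were known. They were the core of the antioxidant response element, which Nrf2 binds with small MAF proteins (TGACNNNGC), the E-box (CACGTG) and its variant (CATGTG), both bound by MITF, and the core of OTX2 and CRX sites (TAATCC). Of 32851 mouse promoters of this length, 10.2%, 6.02%, 12.3% and 6.25% held them. The Slc16a1 window held TGACNNNGC on the opposite strand, read there as the capitals GCCGGGTCA from 207 bases before the start, and CACGTG from 200 bases before it. These matches overlap. The Slc16a8 window held none of the 4. GC content was 76.4% in the Slc16a1 and 58.8% in the Slc16a8 window. Sequences were matched for 32 of the 34 genes, with 48 promoters. TGACNNNGC was also found upstream of Aldoa and Hk1, CACGTG upstream of Ldha, Pdk2, Pfkfb2, Pfkfb3 and Pfkm, CATGTG upstream of Hk1, Pdha1 and Pgam2, and TAATCC upstream of Aldoc, Ldha, Pfkm and Pfkp. A match describes these letters, and binding was not measured.

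Slc16a1 (ENSMUSG00000032902, chromosome 3, 104638668 to 104658462, mm10) encodes MCT1, the apical lactate transporter. Control eyes, from mouse 1 to mouse 5, had 1348, 923, 1302, 1415 and 827 CPM. In the Nrf2 eyes of the same mice it had 410, 300, 770, 417 and 338 CPM. Every Nrf2 eye lay below every control eye, and the Nrf2 mean was 38.4% of the control mean. The log2 fold change was -1.45 (SE 0.19, edgeR adjusted p = 0.00427), lower in 5 of 5 mice, and the fall was smallest in mouse 3, whose Nrf2 eye stood above the other 4.

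Slc16a8 (ENSMUSG00000032988, chromosome 15, 79251014 to 79254761) encodes MCT3, the basal lactate transporter whose expression is typical of RPE. Control eyes had 1741, 1190, 1778, 2519 and 1099 CPM. Nrf2 eyes had 819, 515, 1154, 659 and 555 CPM. The groups overlapped through 1 library, the Nrf2 eye of mouse 3, which lay above the control eye of mouse 5. The log2 fold change was -1.18 (SE 0.23, edgeR adjusted p = 0.0163), lower in 5 of 5 mice, and the Nrf2 mean was 44.5% of the control mean. This call was lost without mouse 2 (adjusted p = 0.0659), without mouse 5 (adjusted p = 0.0507) and in the fit with no replicate block (adjusted p = 0.058), each with a log2 fold change of -1.21 to -1.13. Slc16a1 passed in all 13 alternative fits, at -1.56 to -1.32.

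The balance of the lactate transporter genes was then compared. The log2 ratio of Slc16a8 to Slc16a1 per length was 1.44 ± 0.20 (SD, n = 5) in control and 1.71 ± 0.16 (SD, n = 5) in Nrf2 eyes, a difference of 0.26 (SE 0.13) that was positive in 4 of 5 mice. The two-sided exact sign-flip permutation test gave p = 0.1875 (adjusted p = 0.292), but with 5 pairs it cannot go below 0.062 and so could not have passed. Of the 13 RPE markers, 6 were lower, among them Rpe65, the visual cycle isomerase (log2 fold change -2.88), and Rlbp1, a retinoid carrier (-1.93). The other 7 did not pass, 5 of them with positive values. Among these were the pigment genes Tyr (0.88, SE 0.54), Tyrp1 (0.24, SE 0.46) and Pmel (0.17, SE 0.84). Best1 (0.70, SE 0.41) and Ttr (0.00, SE 0.31) were the others. Each of these 5 differed in direction between mice. The median of the list was -0.26. The part of RPE state or RPE number in the transporter values was not tested.

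Bsg encodes basigin, the membrane chaperone of MCT1 and MCT3, and had the highest level per length of the set. Its control values were 4093, 3834, 5097, 5810 and 3008 CPM. Nrf2 eyes had 2984, 2759, 4529, 3151 and 2855 CPM. Bsg was below the control eye of the same mouse in 5 of 5, but the groups overlapped and the log2 fold change of -0.43 (SE 0.14) did not pass (edgeR adjusted p = 0.232).

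Slc2a1, the gene of the glucose transporter GLUT1, had 1364, 974, 1108, 1230 and 768 CPM in control eyes. It had 756, 689, 979, 929 and 823 CPM in Nrf2 eyes. Its level was lower in 4 of 5 mice and hardly differed in mouse 5, and the log2 difference of -0.38 (SE 0.14, edgeR adjusted p = 0.202) did not pass. It passed only when the summed muscle markers were added as a covariate (-0.43, adjusted p = 0.0438).

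The remaining transporters were rare. Slc16a3 encodes MCT4, the lactate exporter of glycolytic muscle and glia, and ranged from 1.05 to 12.8 CPM in control and from 1.14 to 15.9 CPM in Nrf2 eyes. Slc2a3 encodes GLUT3, the neuronal glucose transporter, and ranged from 0.978 to 13.9 CPM in control and from 1.27 to 18.9 CPM in Nrf2 eyes. In both genes the highest control and the highest Nrf2 library came from mouse 2. Their log2 fold changes of 0.61 (SE 0.40) and 0.05 (SE 0.67) did not pass (edgeR adjusted p = 0.461 and 0.983).

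**Figure D1:**
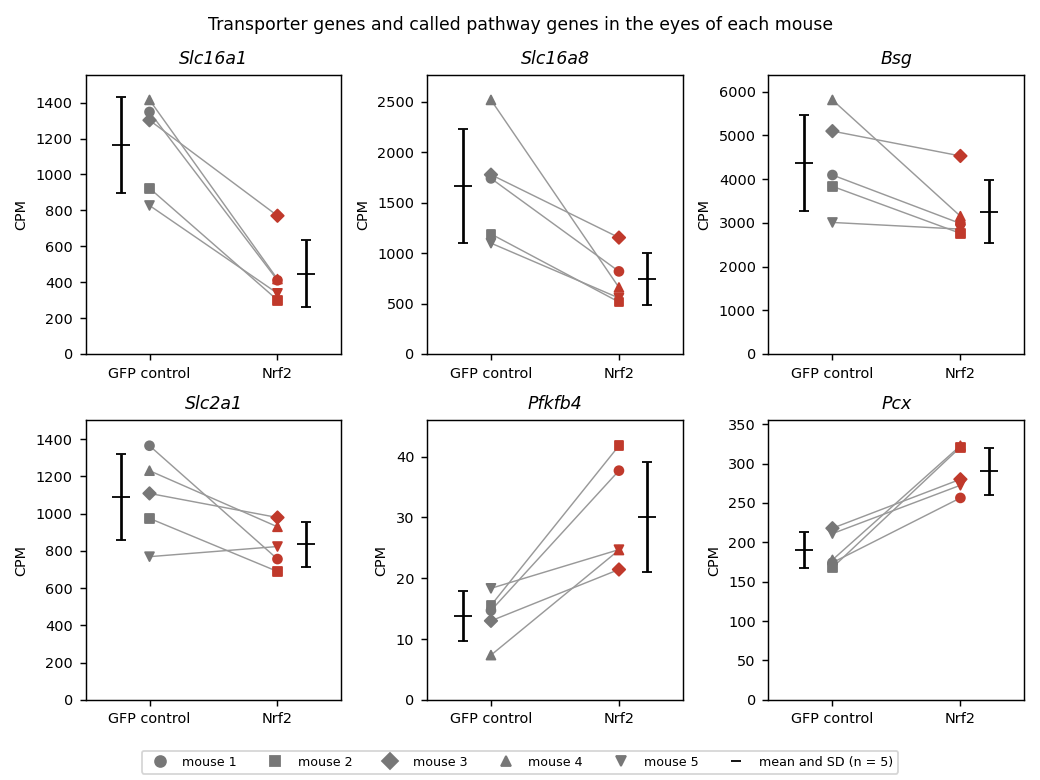
CPM of 4 transporter genes and of the pathway genes Pfkfb4 and Pcx in the GFP control eye (grey) and Nrf2 eye (red) of each mouse, joined by lines, with bars for the mean and SD of 5 eyes. Slc16a1 falls from 827 to 1415 CPM in control to 300 to 770 CPM in Nrf2 eyes with no overlap, and Pfkfb4 and Pcx rise in every mouse.

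The enzymes from hexokinase to lactate dehydrogenase are encoded by 19 of the 34 genes. None passed with edgeR in either direction (0 of 19, beside 6.33% of all tested genes), and 6 had an unadjusted p under 0.05, all of them higher in Nrf2 eyes, beside 9.58% of all tested genes higher at that threshold. The log2 fold change was positive in 16 of the 19, with a median of 0.16. DESeq2 called 2 of the 19 higher, Gapdh and Pkm, beside 5.42% of the genes it tested.

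The upper steps spend ATP on glucose. Hk1, the hexokinase of most tissues, showed a log2 difference of 0.06 (SE 0.13, adjusted p = 0.874). Hk2, a hexokinase of muscle and also of photoreceptors, ranged from 3.42 to 32.5 CPM in control and from 10.8 to 44.9 CPM in Nrf2 eyes, again highest in mouse 2. The mean log2 difference was 0.75 (SE 0.35, adjusted p = 0.206). Gpi1, the glucose phosphate isomerase, differed by 0.16 (SE 0.11). The phosphofructokinases Pfkl (liver type), Pfkm (muscle type) and Pfkp (platelet type) differed by -0.19, 0.10 and -0.18, and none passed. Pfkp shares 748 exon bases with Pitrm1 on the opposite strand, and without the strand setting reads from that stretch cannot be assigned to either gene. Pfkfb2 and Pfkfb3, bifunctional enzymes that set the level of the activator of phosphofructokinase, differed by -0.21 (SE 0.13) and 0.49 (SE 0.47).

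Gapdh was the member nearest to the threshold among those higher. This dehydrogenase makes the NADH of glycolysis, and its gene lies on chromosome 6 (125161715 to 125166467, mm10). Control eyes had 305, 442, 292, 410 and 276 CPM, and Nrf2 eyes 384, 565, 449, 506 and 459 CPM. Each Nrf2 eye lay above its own control, though the groups overlapped, with a log2 fold change of 0.45 (SE 0.08, edgeR adjusted p = 0.0518). It passed in 4 of 13 alternative fits and its direction held in all 13. Gapdh has 91 near copies among the rows of the count table, and its own row held 32.7% of the counts of Gapdh and these copies. The pseudogene Gm13394 held more than Gapdh itself, at 578 ± 127 CPM in control and 780 ± 144 CPM in Nrf2 eyes, and how reads were divided between these rows is not given. The sum over all copies differed by 0.44 (adjusted p = 0.0815).

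The lower steps return ATP and end in pyruvate and lactate. Tpi1, the triose phosphate isomerase, differed by 0.32 (SE 0.09, edgeR adjusted p = 0.165), and Pgk1, the first ATP-forming kinase of the pathway, by 0.02 (SE 0.08). Pgk1 shares 67.9% of its 50-base runs with the pseudogene Pgk1-rs7, and how reads were divided between them is not given. Pkm, the pyruvate kinase of muscle and of most other tissues, had 1219, 1730, 978, 1025 and 983 CPM in control and 1208, 2038, 1441, 1713 and 1539 CPM in Nrf2 eyes. The value of mouse 1 was nearly the same in both eyes, and the groups overlapped. Its log2 fold change was 0.42 (SE 0.12, edgeR adjusted p = 0.149), and DESeq2 gave 0.43 (adjusted p = 0.026). The row of Pkm joins its splice forms, so the form that photoreceptors use could not be read separately.

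Ldhb, the lactate dehydrogenase subunit typical of tissues that oxidize lactate, differed by 0.32 (SE 0.10, edgeR adjusted p = 0.196) and was higher in 5 of 5 mice. Ldha, the subunit typical of glycolytic tissues, differed by 0.13 (SE 0.08, edgeR adjusted p = 0.627). Aldoa, the aldolase of muscle and most tissues, was among the most abundant members per length and differed by 0.07 (SE 0.11). Aldoc, the aldolase of brain and retina, differed by 0.39 (SE 0.20), and Pgam1 and Eno1, the widely expressed mutase and enolase, by 0.12 (SE 0.08) and -0.15 (SE 0.07). Eno1 shares 70.5% of its 50-base runs with Eno1b, a gene that had 734 ± 80.7 CPM in control and 673 ± 105 CPM in Nrf2 eyes. The row of Eno1 held 46.3% of the counts of Eno1 and its 3 near copies together.

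Pyruvate enters the mitochondrion and is turned into acetyl-CoA by the pyruvate dehydrogenase complex. Of its 3 subunit genes and 4 kinase genes, 0 of 7 passed with edgeR or with DESeq2 and 1, Pdk4, had an unadjusted p under 0.05 (19.1% of all tested genes). Pdha1 and Pdhb, the subunits of the first enzyme of the complex, differed by 0.19 (SE 0.13) and -0.13 (SE 0.05), and Dlat, the acetyltransferase, by -0.08 (SE 0.15). Pdhb was the steadiest of these, with 93.7 to 110 CPM in control and 83.7 to 100 CPM in Nrf2 eyes.

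The kinases Pdk1 to Pdk4 phosphorylate the complex and slow it. Pdk1, Pdk2 and Pdk3 differed by -0.00 (SE 0.35), -0.17 (SE 0.13) and 0.25 (SE 0.16). Pdk4, the kinase induced by fasting in muscle and heart, had 8.26, 3.45, 5.03, 3.82 and 8.79 CPM in control eyes. Nrf2 eyes had 8.02, 4.07, 11.7, 11.1 and 13.2 CPM. The Nrf2 eyes of mice 3, 4 and 5 stood above every other library, those of mice 1 and 2 did not, and the log2 fold change of 0.69 (SE 0.28) did not pass (edgeR adjusted p = 0.211).

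**Figure D2:**
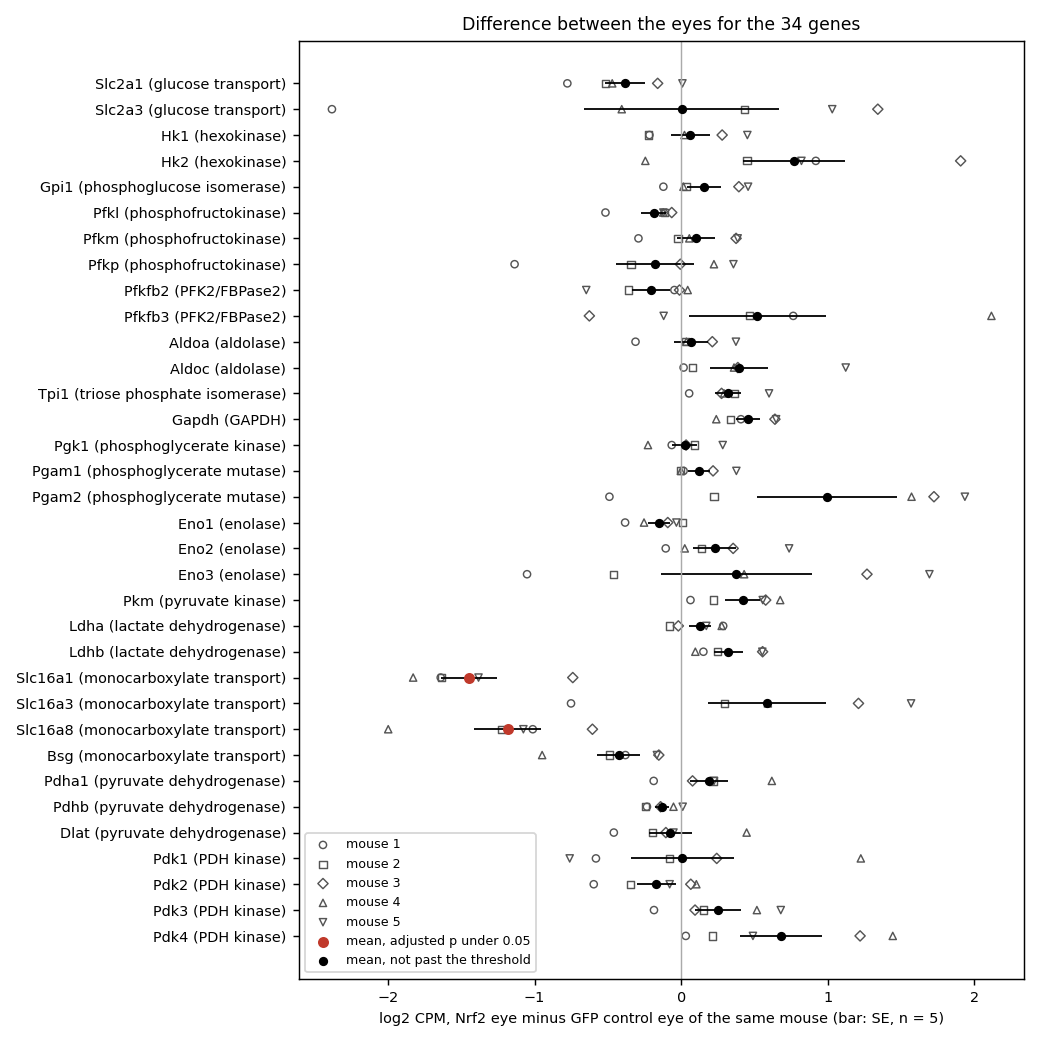
Difference in log2 CPM between the Nrf2 and the GFP control eye of the same mouse for the 34 genes (open symbols, 1 per mouse; filled symbols, mean of 5 mice; bars, SE). Slc16a1 and Slc16a8 (red) lie left of 0 in all 5 mice, while most enzyme means lie within 0.5 of 0 and Slc2a3, Slc16a3, Hk2, Pfkfb3, Pgam2, Eno3 and Pdk1 spread widely between mice.

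Another 31 genes of the pathway (other isoforms, gluconeogenic enzymes, the mitochondrial pyruvate carrier, phosphatases and shuttles) were listed beside the members. Of the 25 that were tested, 2 were higher and 0 lower, 8.0% of them beside 3.6% of all tested genes called higher, with a median log2 fold change of -0.05. At an unadjusted p under 0.05, 4 were higher and 1 lower, beside 9.58% and 9.53% of all tested genes. DESeq2 called 4 of the 25 higher and 0 lower, beside 5.42% and 3.83% of the genes it tested, and also Hk3, which edgeR did not test. The groups did not overlap in 3, all higher, beside 3.87% of all tested genes.

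Pfkfb4, a paralog of Pfkfb2 and Pfkfb3, had 14.7, 15.5, 12.99, 7.35 and 18.3 CPM in control eyes. Nrf2 eyes had 37.7, 41.8, 21.4, 24.6 and 24.7 CPM. It rose in 5 of 5 mice without overlap, with a log2 fold change of 1.12 (SE 0.25, edgeR adjusted p = 0.024). Pcx, pyruvate carboxylase, which turns pyruvate into oxaloacetate, had 174, 168, 218, 178 and 211 CPM in control eyes. Nrf2 eyes had 256, 321, 280, 323 and 273 CPM, again all above the control eyes, with a log2 fold change of 0.60 (SE 0.12, edgeR adjusted p = 0.0297). Both calls were lost with the summed rod markers as a covariate (0.94, adjusted p = 0.104, and 0.52, adjusted p = 0.13) and when mouse 1, 2 or 4 was left out.

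To describe isoform use, levels were divided by exon length. Per length, control eyes had most Bsg (2408 ± 605 CPM per kb, SD, n = 5), followed by Slc16a8 (732 ± 250) and Aldoa (609 ± 79.1), which did not differ beyond their spread. Ldhb (363 ± 57.1), Slc2a1 (311 ± 65.6), Slc16a1 (263 ± 60.6) and Pkm (237 ± 63.8) came next, each within 1 SD of its neighbour. Ldha (175 ± 50.5), Pgam1 (174 ± 47.5) and Eno1 (153 ± 18.3) followed without a gap beyond their spread. At the other end lay Slc2a3 (0.875 ± 0.696) and Slc16a3 (0.796 ± 0.918), whose SD was about as large as the mean. This order rests on the exon length. By the longest transcript, Bsg was still first (2862 CPM per kb), followed by Aldoa (1145), Slc16a8 (922), Pkm (488), Ldhb (437), Eno1 (407), Slc2a1 (334), Ldha (319) and Slc16a1 (263). With the counts of near copies added, Eno1 was at 331 CPM per kb of its own exon length and Gapdh at 256 in place of 83.4.

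Each family was then described by the share of its isoforms in CPM per kb. Shares are taken among the members of the set, and where other listed isoforms change them the wider share follows, chosen after seeing the data. Of GLUT1 and GLUT3, GLUT1 made up 99.7% in control and 99.6% in Nrf2 eyes. With Slc2a4 added, the gene of the insulin-responsive GLUT4 of muscle and fat, GLUT1 was at 98.0% ± 0.577 and 97.9% ± 0.838 and GLUT4 came next at 1.70% ± 0.512 and 1.70% ± 0.461 (SD, n = 5 each). Hk1 made up 93.0% ± 3.96 and 90.2% ± 1.78 of Hk1 and Hk2 together. With Hkdc1 and Hk3 added, Hk1 was at 80.2% ± 4.68 and 78.4% ± 3.52, and Hkdc1 at 13.6% ± 4.48 and 9.75% ± 3.89, beside Hk2 at 6.06% ± 3.39 and 8.54% ± 1.87. Hk3 was at 0.109% ± 0.0911 and 3.29% ± 4.01, and reached 9.84% in the Nrf2 eye of mouse 4. Its mean level was 0.131 CPM in control and 4.02 CPM in Nrf2 eyes. Phosphofructokinase was a mixture of Pfkl at 55.5% ± 2.66, Pfkm at 26.6% ± 1.46 and Pfkp at 17.96% ± 3.02 in control eyes, and Pfkm was at 30.7% ± 3.45 in Nrf2 eyes. By exon length the liver type led and the muscle type came second in every library. By the longest transcript Pfkp, which shares exon bases with Pitrm1, came second in the control eye of mouse 1.

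Pfkfb2 held 71.9% ± 10.4 of Pfkfb2 and Pfkfb3 in control and 62.0% ± 6.47 in Nrf2 eyes, with a range over the libraries of 55.5% to 88.4%. With Pfkfb1 and Pfkfb4 added, control eyes had 44.8% ± 8.94 of Pfkfb2 and 34.1% ± 4.36 of Pfkfb4, which were level in mouse 3 (36.1% each) and close in mice 1 and 5. In the 5 Nrf2 eyes Pfkfb4 led (53.3% ± 3.72, with Pfkfb2 at 27.8% ± 3.74). The call of Pfkfb4 is part of that shift. Aldoa held 86.4% ± 1.30 and 83.5% ± 1.81. Ldhb held 67.5% ± 8.31 and 70.4% ± 6.80, and Ldha, the glycolytic subunit, had the highest share of each group in mouse 2 (43.7% in the control and 38.2% in the Nrf2 eye), though the control eye of mouse 5 (39.1%) lay above the latter. By exon length Ldhb was the larger part in all 10 libraries. By the longest transcript Ldha was the larger part in 1 library, the control eye of mouse 2.

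Among the monocarboxylate transporters Slc16a8 held 73.0% ± 2.60 in control and 76.2% ± 1.93 in Nrf2 eyes, Slc16a1 26.9% ± 2.56 and 23.4% ± 1.91, and Slc16a3 0.0954% ± 0.131 and 0.345% ± 0.391. Without mouse 2 the means of Slc16a3 were 0.0372% and 0.179%. MCT4 was thus at or under 1.01% of the family in every library. Pdk2 led the kinases at 75.4% ± 2.92 and 70.6% ± 1.42, ahead of Pdk3 at 14.2% ± 2.73 and 17.7% ± 2.79, Pdk1 at 8.81% ± 3.47 and 8.95% ± 2.16, and Pdk4 at 1.66% ± 0.795 and 2.77% ± 1.03. These shares varied between mice and with the lengths used, and the part of depth in them was not tested. With the longest transcript as length, Ldha was at 41.9% in control eyes.

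**Figure D3:**
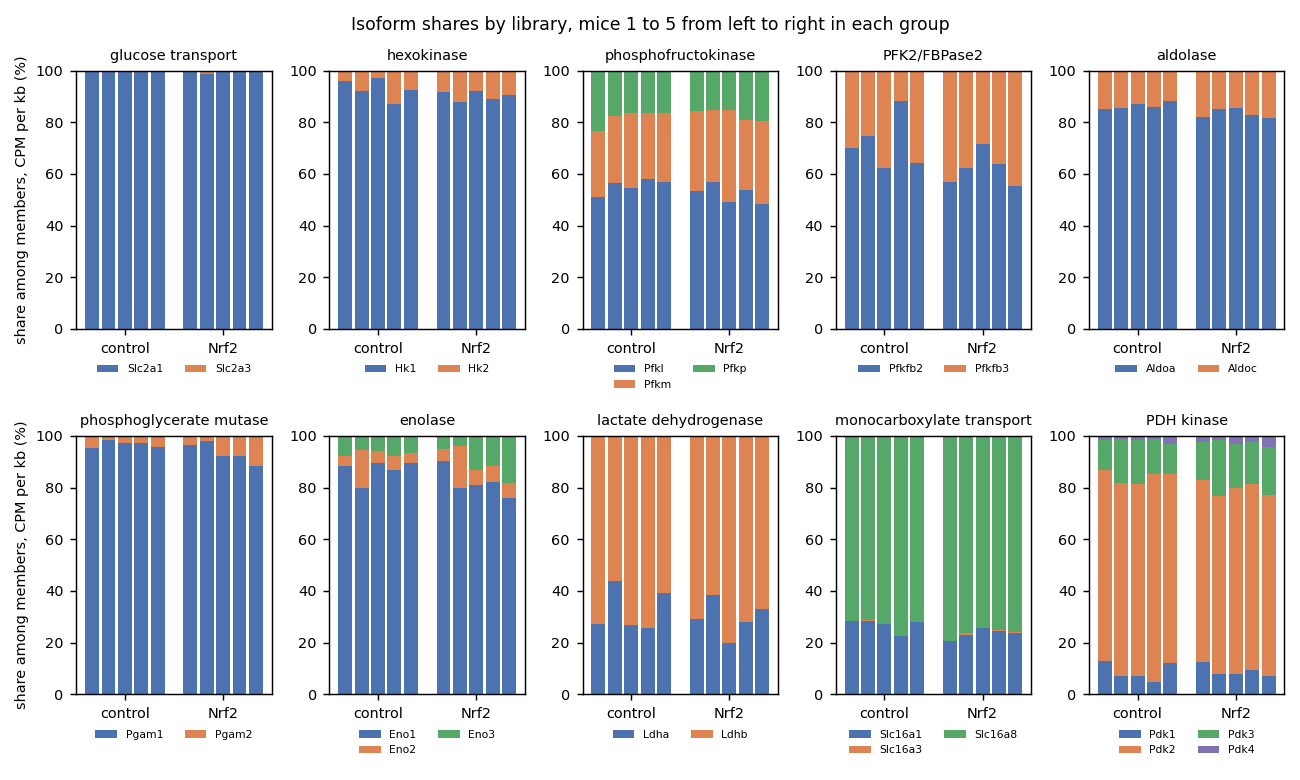
Share of each isoform in its family (percent of summed CPM per kb) in each library, with the control eyes of mice 1 to 5 on the left and their Nrf2 eyes on the right of each panel. Shares are among the members, by exon length. Hk1, Aldoa, Ldhb, Pgam1, Eno1, Slc16a8 and Pdk2 lead in every library, and Pgam2 and Eno3 take larger shares in the Nrf2 eyes of mice 3, 4 and 5.

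Paired ratios between isoforms were tested over the 5 mice for 14 pairs. The smallest p that the two-sided exact sign-flip permutation test can give with 5 mice is 0.062, so no ratio could pass at 0.05. Of the 14, 5 reached that smallest p (adjusted p = 0.175), so these differences did not pass. The log2 ratio was higher in the Nrf2 eye of every mouse for Pfkm to Pfkl, with a mean difference of 0.29 (SE 0.08), Aldoc to Aldoa at 0.33 (SE 0.12), Eno2 to Eno1 at 0.38 (SE 0.11), Pdk4 to Pdk2 at 0.86 (SE 0.17) and Slc16a3 to Slc16a1 at 2.04 (SE 0.35). The last of these has the call of Slc16a1 in its denominator. The other 9 ratios differed in direction between mice.

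The muscle isoforms were examined library by library, since muscle attaches to the outside of the eye. Pgam2, the phosphoglycerate mutase of muscle, had 6.38, 3.63, 3.63, 4.30 and 4.83 CPM in control eyes. Nrf2 eyes had 4.28, 4.31, 12.1, 13.6 and 19.97 CPM. The Nrf2 eyes of mice 3, 4 and 5 stood above all other libraries, and those of mice 1 and 2 lay within the control range. The log2 fold change was 1.03 (SE 0.48, edgeR adjusted p = 0.226).

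Eno3, the muscle enolase, was likewise highest in the Nrf2 eyes of mice 3, 4 and 5. Control eyes had 24.8, 19.8, 15.9, 25.0 and 15.7 CPM, and Nrf2 eyes 11.3, 14.5, 38.0, 35.2 and 54.3 CPM. The first 2 Nrf2 eyes were the lowest and the last 3 the highest of all 10 libraries, with a log2 fold change of 0.39 (SE 0.51, edgeR adjusted p = 0.722). It was 0.04 without mouse 5, 0.20 without mouse 3, 0.65 without mouse 2 and 0.78 without mouse 1. As shares, Pgam2 was 3.23% ± 1.23 of the mutases in control eyes and 3.39%, 1.97%, 7.61%, 7.96% and 11.5% in the Nrf2 eyes, and Eno3 was 6.58% ± 1.15 of the enolases in control eyes and 5.04%, 3.82%, 13.1%, 11.5% and 18.2% in the Nrf2 eyes. The mean shares of Eno3 depended on the length and on copies, at 2.94% in control and 4.82% in Nrf2 eyes with the longest transcript, and at 3.29% and 5.35% with near copies summed. Pgam1 shares 41.5% of its 50-base runs with Pgam1-ps2, and how reads were divided between them is not given. With near copies summed the mean shares of Pgam2 were 3.17% in control and 6.46% in Nrf2 eyes.

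Skeletal muscle markers moved in the same libraries. The 20 markers summed to 191, 105, 176, 215 and 121 CPM in control eyes and to 18.9, 43.0, 763, 522 and 1186 CPM in Nrf2 eyes. Of the 19 that were tested, 0 passed with edgeR (0 also at an unadjusted p under 0.05, and 0 with DESeq2) and 19 had a positive log2 fold change. None was at 0 in every library. Atp2a1, the calcium pump of fast muscle, was at 1.59 and 6.71 CPM in the Nrf2 eyes of mice 1 and 2 and at 171, 117 and 273 CPM in those of mice 3, 4 and 5. Acta1, skeletal actin, and Myh4, a fast myosin, had the same split, with at most 3.86 and 2.81 CPM in the former and at least 73.8 and 50.4 CPM in the latter.

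Pfkm, the muscle phosphofructokinase, did not follow that split as closely. It had 61.8, 70.4, 93.9, 75.5 and 75.3 CPM in Nrf2 eyes against 54.1 to 79.7 CPM in control eyes, so the libraries of mice 4 and 5 lay within the control range. In the fit with the muscle list as a covariate the log2 fold change of Eno3 was 0.18 (adjusted p = 0.474) and that of Pgam2 0.82 (adjusted p = 0.0403), which passed there and in no other alternative. Across the set, 5 of 34 genes (14.7%) had the Nrf2 eyes of mice 3, 4 and 5 above all other libraries, beside 2.77% of all tested genes. They were Aldoc, Pgam2, Eno3, Ldhb and Pdk4, and this pattern was picked after the values were seen. In the muscle covariate fit Aldoc differed by 0.33, Ldhb by 0.29 and Pdk4 by 0.61, beside 0.39, 0.32 and 0.69 without it.

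**Figure D4:**
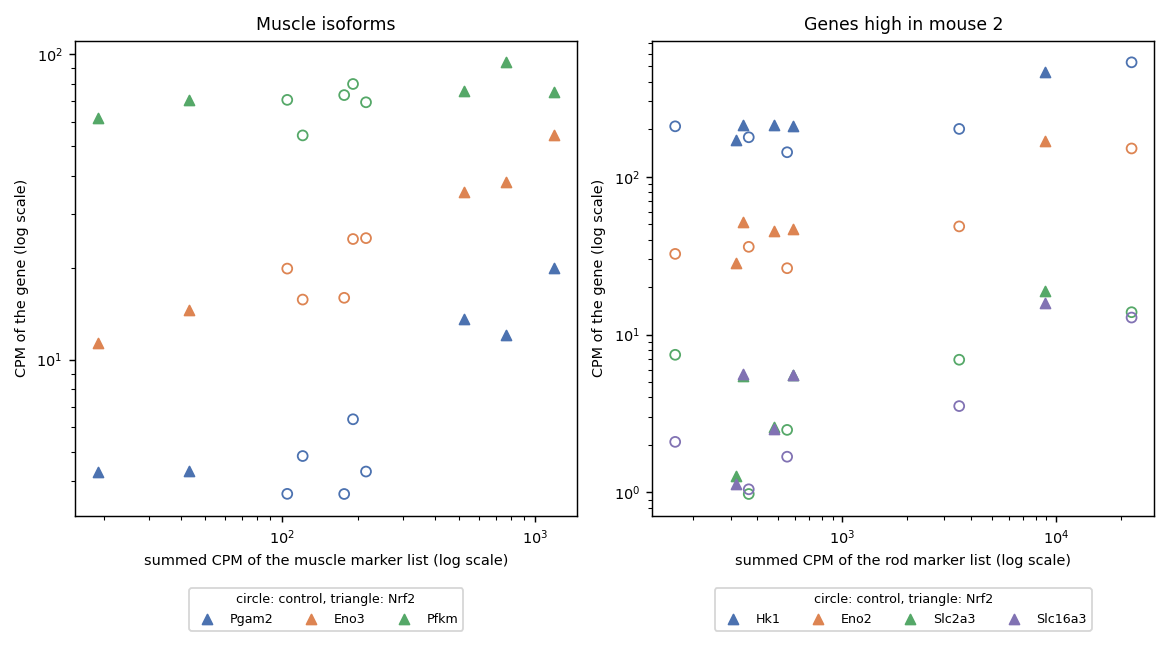
CPM of the gene against the summed CPM of a marker list in each library, on log axes, with circles for control and triangles for Nrf2 eyes. On the left, Pgam2 and Eno3 are highest in the 3 Nrf2 libraries with 522 CPM or more of muscle markers. On the right, Hk1, Eno2, Slc2a3 and Slc16a3 are highest in the 2 libraries of mouse 2, with 8905 and 22520 CPM of rod markers.

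Genes of glycolysis used by photoreceptors and neurons were examined in the same way. Rod markers (14 genes, none at 0 in every library) summed to 165, 22520, 364, 3517 and 551 CPM in control eyes and to 317, 8905, 481, 341 and 586 CPM in Nrf2 eyes. Mouse 2 thus held most rod RNA in both eyes, followed by the control eye of mouse 4. Of the 13 tested, 0 passed with edgeR, 1 was lower with DESeq2 and 1 at an unadjusted p under 0.05, and 1 had a positive log2 fold change (median -1.09). Cone markers summed to 18.1 to 506 CPM in control and 15.9 to 122 CPM in Nrf2 eyes, highest in mouse 2 in both groups. Of 8 tested, 0 passed with edgeR, 1 was lower with DESeq2 and 3 at an unadjusted p under 0.05, and 1 had a positive log2 fold change (median -0.82). Gnat1, rod transducin, was at 4464 and 1634 CPM in the control and Nrf2 eye of mouse 2, and Sag, rod arrestin, at 3909 and 2033 CPM in these eyes. Markers of inner retina neurons summed to 972 and 1062 CPM in mouse 2 and to 313 to 471 CPM in the other libraries.

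Of the 34 genes, 12 (35.3%) were highest in mouse 2 in both groups, beside 12.1% of all tested genes, a pattern again picked after the values were seen. They were Slc2a3, Hk1, Hk2, Pfkfb2, Tpi1, Gapdh, Pgam1, Eno1, Eno2, Pkm, Ldha and Slc16a3. Hk1 had 530 CPM in the control and 459 CPM in the Nrf2 eye of mouse 2, against 143 to 214 CPM in the other 8 libraries. Eno2, the neuronal enolase, had 151 and 168 CPM there against 26.3 to 51.5 CPM in the rest. For both genes the eyes of mouse 2 thus stood far above the others, and the eyes of that mouse differed little.

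Over the 5 mice the paired difference of Eno2 was 0.23 (SE 0.15, edgeR adjusted p = 0.443), and 0.105 without mouse 5. The Nrf2 eye of mouse 2 had 8905 CPM of rod markers and its control eye 22520 CPM, with 44.9 and 32.5 CPM of Hk2 and 15.9 and 12.8 CPM of Slc16a3. The control eye of mouse 4 had the third highest rod sum. Among the 5 control eyes it came second to mouse 2 for 7 of these 12 genes (Hk2, Tpi1, Gapdh, Pgam1, Eno1, Eno2 and Slc16a3). It was behind 2 other eyes for 3 (Slc2a3, Hk1 and Pkm) and behind 3 for 2 (Pfkfb2 and Ldha). The 12 genes were picked from the same values. Ranks of that eye over all tested genes were not taken, so these counts have no share beside them. With the rod list as a covariate, Slc16a1 and Slc16a8 kept their calls at -1.34 (adjusted p = 0.0276) and -0.94 (adjusted p = 0.0395), and Hk2 differed by 1.06 (adjusted p = 0.112). The covariate fits do not measure the part of retinal or muscle RNA in the levels, which was not tested.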

How the data were processed

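Raw counts per Ensembl gene were deposited without normalization. The authors aligned reads with STAR to mm10 with Ensembl release 91 and counted them with featureCounts, and in parallel ran Salmon (0.8.2 in the submitters' processing notes) and DESeq2. Which counts were deposited, and the strand setting, are not given in the sources used here. The table held 10 libraries and 0 columns of other samples. Of its 47729 genes, 47310 (99.1%) matched GENCODE M21, from which symbols, positions, exon lengths and overlaps were taken.

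Genes were tested with edgeR 4.0.16 (R 4.3.3): filterByExpr, TMM, quasi-likelihood F test, mouse as block, Benjamini-Hochberg adjustment, threshold 0.05. DESeq2 1.42.0 was an alternative. The SE is that of the 5 within-mouse differences of TMM-scaled log2 CPM (prior count 2), and other CPM use library totals. The block follows the animal number in the labels: deviations from group means correlated at r = 0.19 to 0.71 between the eyes of a mouse, against a median of -0.08 (-0.42 to 0.28) between mice, with 3 same-mouse values below the top of that range. Isoform ratios used counts per exon length (prior of 0.5 counts). Near copies were annotated pseudogenes sharing at least 5% of a gene's 50-base runs, or any gene sharing at least 50%. A count of 0 allows up to 3 counts, 0.110 to 0.244 CPM (counting error only). No libraries agreed within sampling noise (smallest chi-square per degree of freedom 37.1). The tests across genes were also run on simulated counts. These held no differences between mice, so they do not show how the blocked test behaves on these data. The members and lists were chosen with earlier results of these data known. All 34 members are named. Of other pathway genes those past the threshold are named with values, and of muscle and rod markers the 3 most abundant, of which 1 is not reported here. Promoters came from RefSeq.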

Additional observations from a re-analysis of the deposited data

Results flagged for a closer look

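Of 72 groups of 5 eyes checked for a library far from the other 4, on the scale of log2 CPM, 7 stood out, where chance gives about 3.6. Hk1 stood out in mouse 2 in both groups, with 9.01 in the control eye against 7.2 to 7.68 in the other control eyes, and 8.79 in the Nrf2 eye against 7.47 to 7.81. Pfkm was high in the Nrf2 eye of mouse 3, at 6.63 against 6.0 to 6.18, and Bsg in the same library, at 12.22 against 11.37 to 11.6. Pfkfb3 was low in the control eye of mouse 4, at 1.55 against 3.36 to 4.09. In the control eye of mouse 5, Aldoa was low at 10.46 against 10.83 to 10.89, and Aldoc at 7.71 against 8.31 to 8.48. Leaving out mouse 5 moved the log2 fold change of Aldoa to -0.01.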

How the results depend on the processing

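The lower level of Slc16a1 passed in all 13 alternatives. In the fit with no replicate block, 755 genes were called (523 higher, 232 lower; 687 shared with the paired fit), 1 member was lower (Slc16a8 was lost) and 3 other pathway genes were called; the block changed no other call among the members, and without it the log2 fold change of Hk1 turned to -0.006. DESeq2 called 1812 genes, 2 members higher (Gapdh, Pkm) and 5 other pathway genes. RLE size factors and a mean of at least 50 counts each gave 1 member higher (Gapdh), and the muscle covariate 2 (Gapdh, Pgam2). The rod covariate called 516 genes (342 higher, 174 lower) and 0 other pathway genes. The cause of these shifts was not tested. Leaving out each mouse in turn gave 584 to 857 genes (173 to 292 of them lower), 1 to 2 members lower and 0 to 2 other pathway genes.

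Signs turned in the following values, none of which had passed. The ratio of Pfkp to Pfkl (0.01) ran from -0.111 to 0.164 without 1 mouse, being -0.006, -0.077 and -0.111 without mouse 3, 4 or 5, and that of Pdk1 to Pdk2 from -0.057 (without mouse 4) to 0.395. Pdk1 (-0.002) was at 0.006 with DESeq2 and with RLE, 0.007 with a mean of at least 50 counts, and 0.185, 0.054 and 0.194 without mouse 1, 2 or 5 (-0.265 without mouse 4). Slc2a3 was at -0.213 with the muscle covariate and -0.03, -0.21 and -0.245 without mouse 2, 3 or 5, and at most 0.624. Without 1 mouse, Hk1 ran from -0.034 to 0.171, Aldoa from -0.008 to 0.199 and Pgk1 from -0.041 to 0.118 (each lowest without mouse 5), and Pfkp from -0.312 to 0.094 and Dlat from -0.171 to 0.058 (each highest without mouse 1). Leaving out 1 mouse turned the sign or moved the value by over 1.5 times in 25 of the 34 members, 0 of them called. Without mouse 1, Pfkl was at -0.07, Eno1 at -0.057, Pdk2 at -0.028 and Eno2 at 0.349. Among larger values, Bsg was at -0.27 without mouse 4, Slc2a1 at -0.25 without mouse 1, Aldoc at 0.21 without mouse 5, Slc16a3 at 0.96 and 0.35 without mouse 1 or 5, and Pfkfb3 at 0.83 and 0.16 without mouse 3 or 4 and 0.08 with the rod covariate.

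With the longest transcript as length, shares in control and Nrf2 eyes were 19.5% and 22.96% for Pfkm, 8.97% and 11% for Aldoc, 41.9% and 38.8% for Ldha, 77.3% and 80.1% for Slc16a8, 2.94% and 4.82% for Eno3, and 3.95% and 5.57% for Hk2. With near copies summed, an alternative chosen after seeing the data, they were 3.29% and 5.35% for Eno3 and 3.31% and 4.01% for Eno2. With the other listed isoforms added, likewise chosen after seeing the data, Pfkfb3 was at 17.2% and 16.99%. Slc2a3, Slc16a3, Pgam2 and Pdk4 had the few counts of 1289, 1013, 1457 and 1534 over all libraries together. Their log2 ratios to Slc2a1, Slc16a1, Pgam1 and Pdk2 differed by 0.386, 2.04, 0.882 and 0.857 between Nrf2 and control eyes. With a prior of 2 counts these differences were 0.376, 2.02, 0.868 and 0.845. The part of depth in the levels of these genes was not tested.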
